A study of Mus musculus with 38 samples.

Results

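The effect of having no activin A was set against the effect of having too much of it, gene by gene, in fetal male germ cells (gonocytes) at embryonic day (E) 13.5. An effect was the log2 ratio of knockout (KO) to wildtype (WT) level within one sequencing run. Members were the 9783 genes found by identifier in both E13.5 count tables, of 27648 genes over all tables of the series. Of these, 9538 had at least 2 cpm (counts scaled to the total count of the library) in at least 2 animals of each run and were tested, and 245 were not. The Inhba animals lack the inhibin βA subunit and so make no activin A, and comprised 4 KO and 3 WT embryos. The Inha animals lack the inhibin alpha subunit, which leaves activin A in excess, and comprised 2 KO embryos with 2 WT littermates. All 11 embryos were of the C57/Bl6/129svJ strain, carried the Oct4-eGfp transgene, and contributed GFP-positive cells sorted from both of their testes. Both knockouts come from heterozygous matings and lack the subunit in every cell, so effects on gonocytes through the somatic cells of the testis and effects on the gonocytes themselves cannot be told apart. The title of Inhba KO replicate 1 reads KO and its genotype field reads WT. The title was followed here, and the group sizes given with the study fit the field. Calls for the difference, and genes that moved in both knockouts, are given with both groupings where they change. Medians of lists and sums of markers are given with the title grouping. The knockout lines were sequenced in separate runs that differ in read length and depth, so line and run cannot be told apart, and levels were compared only within a run. An outlying Inhba WT gonocyte sample had been left out by the authors.

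Activin A is a dimer of 2 βA subunits made by the somatic cells of the fetal testis. It binds an activin type II receptor, which activates a type I receptor that phosphorylates SMAD2 and SMAD3. Inhibin, a dimer of an alpha and a β subunit, occupies the type II receptors without signalling and limits activin. Around this age gonocytes leave the cell cycle, switch off pluripotency genes and enter male differentiation. A transcript that follows activin A dose directly would move one way in the Inhba KO and the other way in the Inha KO, and the comparison asks which transcripts do so and which move the same way in both.

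Totals were 17239105 to 19791975 counts in the Inhba animals and 6320539 to 11917167 counts in the Inha animals, where the deposited table had already lost mitochondrial and low genes. A level of 3 counts corresponds to 0.152 to 0.475 cpm. Animals of an Inhba group correlated at 0.964 to 0.988 in log2 cpm over the tested genes, the Inha KO pair at 0.935 and the Inha WT pair at 0.941. The biological coefficient of variation was 16.1% in the Inhba run and 25.3% in the Inha run. Inhba and Inha are genes of somatic cells, and neither checks the labels here. Inhba had 6 to 12 counts in each Inhba KO and 1 to 4 counts in each WT library. Neither gene was among those of the Inha table. The germ cell gene Ddx4 stood between 319.8 and 670.1 cpm in all 11 animals. Among the Sertoli cell genes, Sox9 reached 7.97 cpm in Inhba KO replicate 1, 0.464 to 4.17 cpm in the other Inhba KO animals and 0.253 to 2.85 cpm in Inhba WT, and lay at 7.89 and 9.97 cpm in Inha KO against 3.86 and 15.3 cpm in Inha WT.

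The effects of loss and excess of activin A were nearly unrelated across genes. Pearson's r over the 9538 genes was 0.06 and Spearman's rho was 0.01, as a description of genes that are not independent of each other. Both effects had the same sign in 4757 genes, 49.9% of those tested, of which 2190 were higher and 2567 lower in both KOs. Of the others, 2163 were higher in the Inhba KO and lower in the Inha KO, and 2618 were lower in the Inhba KO and higher in the Inha KO. The estimated Inhba effects spread less, with an SD of 0.20 on the log2 scale against 0.45 for the Inha effects. Both SDs include estimation error, and the Inha run had fewer animals and the larger variation between animals. The effects of the 2 Inha littermate pairs were themselves only weakly related, with a Pearson r of 0.10 across the same genes.

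**Figure D1:**
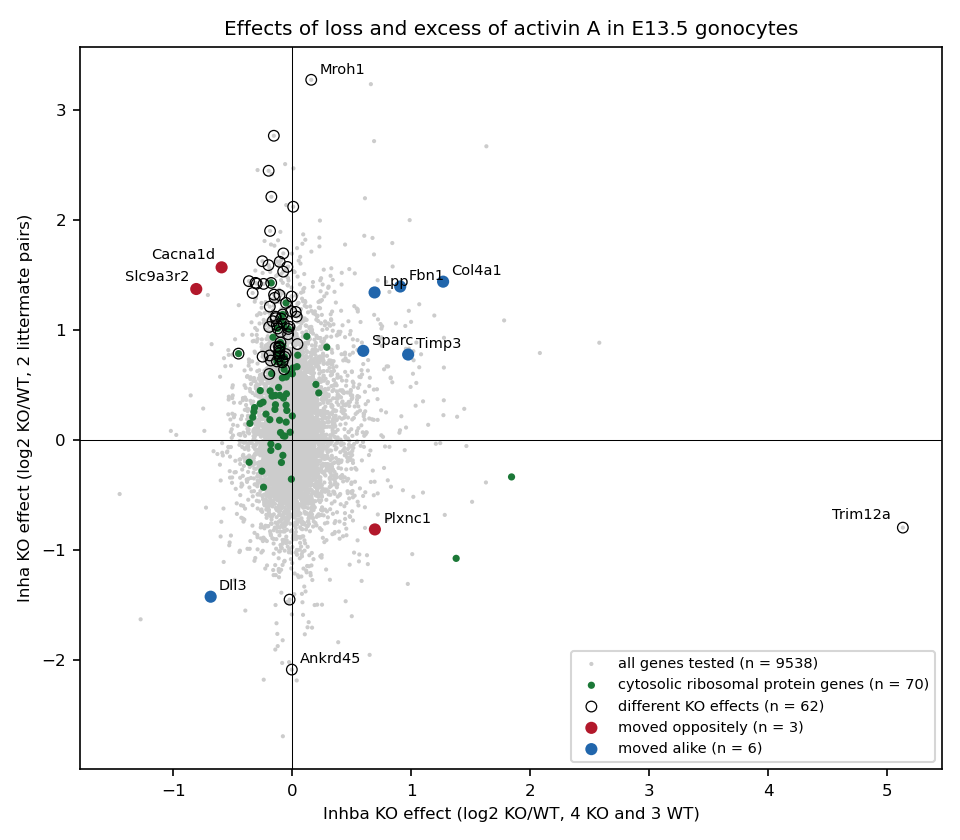
Each point is 1 of 9538 genes, with the Inhba KO effect (log2 KO/WT) on the horizontal axis and the Inha KO effect (log2 KO/WT) on the vertical axis. Genes called for different effects (open circles) lie mainly along the vertical axis near an Inhba effect of 0, Trim12a stands alone at an Inhba effect of 5.13, and the 3 genes that moved oppositely and the 6 that moved alike lie away from both axes.

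The difference between both effects (Inhba effect minus Inha effect) passed the test in 62 genes. In 59 genes, 0.619% of those tested, the Inhba effect lay below the Inha effect, and in 3 genes, 0.0315%, it lay above. A gene passed with an adjusted p under 0.05 (edgeR's quasi-likelihood test, Benjamini-Hochberg) and a difference beyond 1.5-fold. Only 1 of the 62, Trim12a, moved in the Inhba KO, beside 60 of all 9538 genes. In the other 61 the Inha effect passed an unadjusted p under 0.05 with 1.5-fold, while their Inhba effects were at most 0.45 log2 in size. The effects had opposite signs in 55 of the 62, against 4781 of all 9538 genes. Selection for a large difference itself favours opposite signs, so this count is a description only. In 54 of the 62 the Inhba groups overlapped. Among all 9538 genes tested, 366 had Inhba groups that did not overlap. The calls rest on the tool and on how the pairs are treated. limma-voom called 0 genes, also with a spread of its own for each run, and a fit without the littermate block called 0, while DESeq2 called 257, which held all 62. At an unadjusted p under 0.05 the edgeR test of the difference held 1290 genes. The count was 18, 17, 66 and 14 without Inhba KO replicates 1, 2, 3 and 4, 20, 11 and 10 without Inhba WT replicates 1, 2 and 3, 20 without Inha pair 2 and 356 without Inha pair 1. With Inhba KO replicate 1 grouped by its genotype field, 43 genes were called, of which 36 were among the 62.

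The largest group among the called genes was that of the cytosolic ribosomal proteins, the protein part of the ribosome. Of 82 listed genes 70 were tested, and 17 of the 70 were called with an Inhba effect below their Inha effect, against 0.619% of all genes. With Inhba KO replicate 1 grouped by its genotype field 11 of the 17 kept the call. Their median effect was -0.10 in the Inhba KO and 0.41 in the Inha KO, beside -0.01 and 0.00 over all genes tested. In the Inhba KO 9 of the 70 were higher than in WT, and in the Inha KO 59 of the 70 were higher, beside 4353 and 4808 of all 9538 genes. In the Inha run 48 of the 70 were higher in the KO of both littermate pairs and 4 were lower in both, against 2705 and 2659 of all 9538 genes. The median by pair was 0.52 in pair 1 and 0.44 in pair 2. The median by Inhba KO animal, each against the WT mean, ran from -0.13 to -0.04.

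Rps25 encodes a protein of the small ribosomal subunit (ENSMUSG00000009927, GRCm38 chromosome 9 from 44407139 to 44410427). It had 387, 411, 412 and 389 cpm in the 4 Inhba KO animals, against 401, 418 and 397 cpm in Inhba WT. The Inhba groups overlapped. In the Inha run it had 109 and 59.2 cpm in KO, against 53.3 and 26.3 cpm in the WT littermates, so each KO lay above its own littermate and above both WT animals. The Inhba effect was -0.03 ± 0.07 (SE) and the Inha effect 1.01 ± 0.10 (SE), a difference of -1.04 ± 0.12 (SE, adjusted p = 0.0104).

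Rps15, also of the small subunit, had 107 and 49.7 cpm in Inha KO against 48.7 and 22.4 cpm in Inha WT, with 401 to 530 cpm in Inhba KO and 475 to 502 cpm in Inhba WT. Its difference was -1.13 ± 0.15 (SE, adjusted p = 0.0112). Rpl32, of the large subunit, had 263 and 196 cpm in Inha KO against 150.01 and 106 cpm in Inha WT, and its difference was -0.87 ± 0.11 (SE, adjusted p = 0.0112). For these genes the Inha pairs, and not the Inhba animals, carried the difference. Ribosomal protein genes have many processed copies in the genome, and reads that the copies share could be assigned to either, so values of single genes are uncertain. Rpl30, higher in Inhba KO by 1.84 on the log2 scale, had 214 to 396 cpm in Inhba KO against 211, 40.5 and 35.3 cpm in Inhba WT, with 1 WT animal near the KO level.

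**Figure D2:**
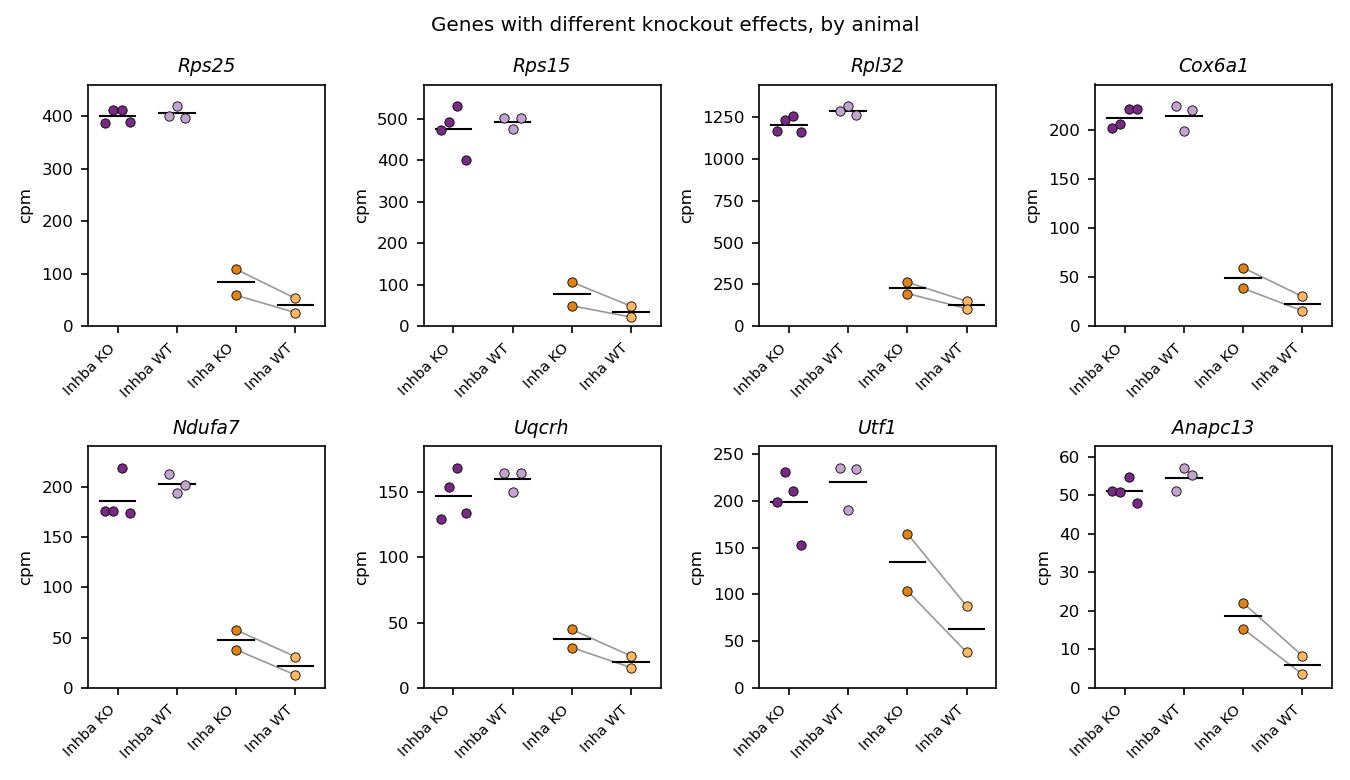
Level in cpm of 8 genes with different KO effects, 1 point per animal, with bars at group means and lines joining Inha littermates. In each gene the 4 Inhba KO points fall among or close to the 3 Inhba WT points, and each Inha KO lies above its WT littermate.

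The nuclear-encoded subunits of the respiratory chain, which carry out oxidative phosphorylation in mitochondria, showed a similar split. Of 80 listed genes 67 were tested, and 5 were called with an Inhba effect below the Inha effect, against 0.619% of all genes. With Inhba KO replicate 1 grouped by its genotype field 2 of the 5, Cox6a1 and Ndufa7, kept the call. Their median was -0.08 in the Inhba KO and 0.36 in the Inha KO. In the Inhba KO 16 of the 67 were higher than in WT, and in the Inha KO 52 were, beside 4353 and 4808 of all 9538 genes. Cox6a1, a subunit of cytochrome c oxidase, had 59.8 and 38.8 cpm in Inha KO against 30.5 and 15.9 cpm in the WT littermates, and 202 to 222 cpm in Inhba KO against 199 to 224 cpm in Inhba WT. The difference of its effects was -1.05 ± 0.16 (SE, adjusted p = 0.0171). Ndufa7, a subunit of complex I, had a difference of -1.25 ± 0.18 (SE, adjusted p = 0.0171), and Uqcrh, of complex III, one of -0.98 ± 0.17 (SE, adjusted p = 0.0351), which was -0.86 (adjusted p = 0.0563) under the genotype-field grouping. Of the translation factors 38 were tested, with medians of -0.02 in the Inhba KO and -0.06 in the Inha KO. None was called for the difference, and 2 of the 38 were called up in the Inha KO, Eif3g (0.74, adjusted p = 0.0154) and Eef1d (0.68, adjusted p = 0.0304). Of all 9538 genes, 62 were called for the difference and 162, 1.7%, were called up in the Inha KO. No call for the difference among 38 genes is near the share of all genes. The difference of Eif3g had an adjusted p of 0.0504, and the lists were not tested against each other.

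The short sequences around the annotated starts of called genes are shown because many ribosomal protein mRNAs begin with a run of pyrimidines through which their translation is controlled. Each is 30 bases, 20 before and 10 from the start, written 5′ to 3′ on the transcript's strand from RefSeq (GRCm38.p6), with the longest unbroken run of C and T in capitals.
Rps25 (chr9:44407694-44407723, plus strand): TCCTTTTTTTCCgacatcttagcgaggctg
Rps15 (chr10:80292411-80292440, plus strand): gCCCTCCCggcagagctcgcgataactgcg
Anapc13 (chr9:102626276-102626305, plus strand): ttgagagcgccgcgagtcacgtgaCCCaga
Cox6a1 (chr5:115348949-115348978, minus strand): tccgCTTCCggcgcgccggtgtagttccat
Ndufa7, first start (chr17:33824552-33824581, plus strand): gCTCTCgcgagaccgcacgcggtacccagg
Ndufa7, second start (chr17:33824625-33824654, plus strand): ggaatatggcgTCCgctactcgcgttatcc
Utf1 (chr7:139943836-139943865, plus strand): cacgccttggagtgcacgcaCCTCTacctg
The longest run was 12 bases in Rps25, 7 in Rps15, 5 in Cox6a1, Utf1 and the first Ndufa7 start, and 3 in Anapc13 and the second Ndufa7 start. The runs of Rps25 and Rps15 lie wholly before the RefSeq start used here, outside the transcript that begins there. The gene coordinates given above for Rps25 begin upstream of its window, so the annotations differ in where the gene starts. A run of at least 8 on this strand was present in 25 of the 54 tested ribosomal protein genes that had a RefSeq promoter, 46.3%, against 14.5% of all 27025 genes with one and 6 of 53 respiratory chain genes, 11.3%. Of the 59 genes whose Inhba effect lay below the Inha effect, 39 had a promoter in the table and 9 held such a run, 23.1%. A run in this window describes the sequence and does not identify a controlled transcript, and the annotated start can lie some bases from the true one.

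Other measured quantities moved together with the Inha effect. Rn18s-rs5, an 18S ribosomal RNA locus, had 19209 and 8772 cpm in Inha KO against 8772 and 2363 cpm in the WT littermates, and 983 to 1936 cpm in Inhba KO against 1571 to 1921 cpm in Inhba WT. Mir6236, annotated as a miRNA, had 1705 and 463 cpm in Inha KO against 499.8 and 194 cpm in Inha WT. The difference of effects was -1.72 for Rn18s-rs5 (adjusted p = 0.0351) and -1.74 for Mir6236 (adjusted p = 0.0222). With Inhba KO replicate 1 grouped by its genotype field, that of Rn18s-rs5 was -1.59 (adjusted p = 0.0563) and the call was lost. That of Mir6236 was then -1.58 (adjusted p = 0.0483) and the call was kept. The 59 genes whose Inhba effect lay below the Inha effect had a median transcript length of 737 bases and a median GC content of 54.6%, against 1486 bases and 49.1% over all tested genes with a transcript. Across genes the Inha effect was related to GC content (Spearman's rho 0.28, with 0.11 in pair 1 and 0.30 in pair 2), while rho was -0.06 for the Inhba effect. With the trends on GC content and length removed for each animal, an alternative chosen after seeing these values, 5 genes were called, all among the 62. The ribosomal protein medians were then -0.05 in the Inhba KO and 0.31 in the Inha KO, and the respiratory chain medians -0.04 and 0.32. Summed over the 70 genes, ribosomal protein transcripts took 23559.9 to 26878 cpm in Inhba KO and 26375 to 26517 cpm in Inhba WT, and 6008 and 5145 cpm in Inha KO against 4209.8 and 3737 cpm in Inha WT. The part of GC content, length and ribosomal RNA in the called differences was not tested further.

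**Figure D3:**
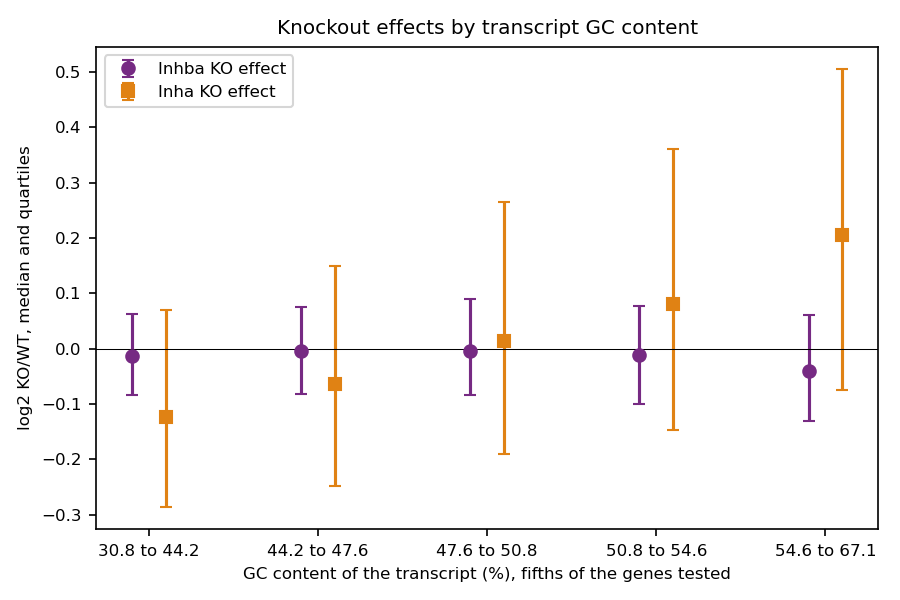
Median KO effect (log2 KO/WT, bars from the lower to the upper quartile) in 5 equal bins of the tested genes by transcript GC content in percent. The Inha median is 0.21 in the bin of highest GC content and -0.12 in the lowest, while the Inhba median stays between -0.04 and 0.00.

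Germ cell genes were among the called and named transcripts. Utf1, a chromatin protein of pluripotent and early germ cells, had 165 and 104 cpm in Inha KO against 87.5 and 38.0 cpm in the WT littermates, and 153 to 231 cpm in Inhba KO against 191 to 235 cpm in Inhba WT. The difference of effects was -1.24 ± 0.22 (SE, adjusted p = 0.0351). Of 26 tested early germ cell and pluripotency genes it was the only one called for the difference, against 0.619% of all genes. Dppa5a, another pluripotency-associated gene, rose in the Inha KO (1.12, adjusted p = 0.0266), with an effect of -0.11 in the Inhba KO (adjusted p of the difference = 0.0606), and Pou5f1, which encodes OCT4, had effects of -0.10 and 0.66 (adjusted p = 0.109). Both missed the threshold for the difference. Over the 26 genes the medians were -0.02 in the Inhba KO and 0.10 in the Inha KO. Male differentiation and piRNA genes had medians of 0.02 and -0.14 over 19 genes, meiosis and retinoic acid genes -0.04 and 0.31 over 11, proliferation genes -0.05 and -0.15 over 27, and none of these lists held a called gene.

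Further single genes were called with no list behind them. Anapc13, a subunit of the anaphase-promoting complex, had 22.1 and 15.3 cpm in Inha KO against 8.34 and 3.53 cpm in Inha WT, and 48.0 to 54.6 cpm in Inhba KO against 51.2 to 57.1 cpm in Inhba WT (difference -1.73 ± 0.22 SE, adjusted p = 0.0112). Tysnd1, a peroxisomal protease, had 8.31 and 8.39 cpm in Inha KO against 1.02 and 1.30 cpm in Inha WT, and 10.2 to 14.9 cpm in Inhba KO against 11.9 to 16.0 cpm in Inhba WT (difference -2.92 ± 0.39 SE, adjusted p = 0.0112). In the Inha run Tysnd1 reached 2 cpm only in the KO animals, so it entered the test through the group where it was high. A filter of 10 cpm left it out. Ankrd45, an ankyrin repeat protein gene, fell in the Inha KO to 2.77 and 4.27 cpm, against 13.1 and 14.4 cpm in Inha WT, with 5.12 to 7.03 cpm in Inhba KO and 5.55 to 7.43 cpm in Inhba WT. Ap4m1, a subunit of an adaptor complex for vesicle transport, fell in the same way, to 11.5 and 11.2 cpm in Inha KO against 28.2 and 30.5 cpm in Inha WT, with 15.4 to 22.5 cpm in Inhba KO and 18.6 to 21.9 cpm in Inhba WT. The differences of effects were 2.08 ± 0.40 for Ankrd45 and 1.43 ± 0.28 for Ap4m1 (SE, adjusted p = 0.0468 for both). Under the genotype-field grouping of Inhba KO replicate 1 both had an adjusted p of 0.0502 and lost the call.

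Trim12a, a member of the TRIM family on chromosome 7 (ENSMUSG00000066258, GRCm38 104299894 to 104315466), was the only gene called in the Inhba KO. It had 5.59, 7.08, 14.9 and 12.8 cpm in Inhba KO, against 0.303, 0.317 and 0.210 cpm in Inhba WT, with no overlap. In the Inha run the level followed the litter and not the genotype, with 6.46 cpm in KO and 13.5 cpm in WT of pair 1, and 0.633 cpm in KO and 0.471 cpm in WT of pair 2. The Inhba WT values rest on 4 to 6 counts each. Trim12a reached 2 cpm only in Inhba KO and in Inha pair 1, so it entered the test through the animals where it was high. The difference of effects was 5.93 ± 0.81 (SE, adjusted p = 0.0118). With Inhba KO replicate 1 grouped by its genotype field, the difference was 3.65 (adjusted p = 0.358) and the call was lost. Trim12a has a close paralogue, Trim12c, and reads that both share could be counted to either.

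Genes that moved in both knockouts were few. Moving was defined as an unadjusted p under 0.05 and a change beyond 1.5-fold in both contrasts, and no gene that did so passed an adjusted threshold for the difference or the mean. In the Inhba KO 49 genes moved up, 0.514% of those tested, and 11 moved down, 0.115%. In the Inha KO 726 moved up, 7.61%, and 270 moved down, 2.83%. An unadjusted p under 0.05 alone held for 156 genes in the Inhba KO and 1888 in the Inha KO. The joint fit used 1 spread for both runs, while the coefficient of variation was 16.1% in the Inhba run and 25.3% in the Inha run. The numbers of moved genes therefore do not compare the sizes of the 2 knockout effects. At the adjusted threshold 162 genes, 1.7%, were called up and 26, 0.273%, down in the Inha KO. Of the 49 genes that moved up in the Inhba KO, 5 also moved up in the Inha KO, 10.2%, and 1 moved down, 2.04%. Among all genes those shares were 7.61% and 2.83%. Of the 11 that moved down, 2 moved up and 1 moved down in the Inha KO. The median Inha effect of the 49 was 0.31, with 32 higher and 17 lower in the Inha KO. None of the 188 genes called in the Inha KO moved in the Inhba KO. The median Inhba effect of the 162 called up was -0.06, with 50 higher and 112 lower, and that of the 26 called down was -0.02.

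Of the genes moving in both, 3 moved oppositely, 0.0315% of those tested. Slc9a3r2, a scaffold protein that anchors membrane transporters (chromosome 17, 24639286 to 24650327), was lower without activin A and higher with excess. It had 10.2, 9.51, 10.8 and 3.34 cpm in Inhba KO against 10.3, 16.9 and 16.5 cpm in Inhba WT, and 14.6 and 5.70 cpm in Inha KO against 6.81 and 1.41 cpm in Inha WT. The Inhba groups overlapped by 1 animal of each. Cacna1d, a subunit of an L-type calcium channel (chromosome 14, 30039939 to 30491455), had the same direction, with 4.04, 4.58, 5.62 and 3.80 cpm in Inhba KO against 6.67, 8.61 and 4.95 cpm in Inhba WT, and 8.14 and 11.7 cpm in Inha KO against 2.44 and 3.89 cpm in Inha WT. Its difference of effects, -2.16 ± 0.46 (SE), had an adjusted p of 0.0601. Plxnc1, a semaphorin receptor (chromosome 10, 94790866 to 94944835), had the other direction, with 8.80, 3.77, 7.96 and 5.93 cpm in Inhba KO against 3.59, 4.65 and 3.89 cpm in Inhba WT, and 9.48 and 22.0 cpm in Inha KO against 18.7 and 30.5 cpm in Inha WT. Its difference was 1.51 ± 0.45 (SE, adjusted p = 0.173), and that of Slc9a3r2 was -2.18 ± 0.62 (SE, adjusted p = 0.152). All 3 were transcripts of low level. Slc9a3r2 stayed in this class in 9 of 21 other settings, and Cacna1d and Plxnc1 each in 5 of 21. Of the 3, only Slc9a3r2 stayed without Inhba KO replicate 1, among 5 genes, and also with that animal grouped by its genotype field, among 3 genes.

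The genes that moved alike numbered 6, of which 5, 0.0524% of those tested, were higher in both KOs. Col4a1, a chain of basement membrane collagen, had 4.49, 4.41, 7.40 and 5.57 cpm in Inhba KO against 2.63, 3.01 and 1.105 cpm in Inhba WT, and 6.46 and 22.1 cpm in Inha KO against 2.75 and 6.36 cpm in Inha WT. The Inhba groups did not overlap. Fbn1, the fibrillin of elastic microfibrils, had 5.87, 5.28, 6.95 and 5.88 cpm in Inhba KO against 2.83, 2.91 and 3.74 cpm in Inhba WT, and 6.88 and 32.0 cpm in Inha KO against 5.29 and 5.42 cpm in Inha WT. Its Inha effect lay almost wholly in pair 2, at 2.39 log2 against 0.33 in pair 1.

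Sparc, a collagen-binding matrix protein, had 86.4, 43.4, 49.8 and 45.4 cpm in Inhba KO against 42.0, 38.5 and 30.4 cpm in Inhba WT, and 62.7 and 89.9 cpm in Inha KO against 41.7 and 38.6 cpm in Inha WT. Timp3, an inhibitor of matrix metalloproteinases, had 21.2, 9.57, 15.9 and 13.1 cpm in Inhba KO against 5.86, 9.46 and 7.26 cpm in Inhba WT, and 25.1 and 26.3 cpm in Inha KO against 17.0 and 11.5 cpm in Inha WT. In both genes the Inhba KO animals all lay above the WT animals, some narrowly. Lpp, a LIM protein of focal adhesions, had 6.48 to 13.3 cpm in Inhba KO against 4.31 to 6.39 cpm in Inhba WT, and 20.3 and 63.4 cpm in Inha KO against 12.7 and 14.01 cpm in Inha WT. Dll3, an inhibitory Notch ligand, was the only 1 lower in both, 0.0105% of those tested, with 3.93, 4.52, 3.17 and 2.89 cpm in Inhba KO against 7.38, 5.44 and 4.58 cpm in Inhba WT, and 4.20 and 4.43 cpm in Inha KO against 8.95 and 13.4 cpm in Inha WT. The mean of its effects was -1.06 ± 0.24 (SE, adjusted p = 0.117) and that of Col4a1 was 1.35 ± 0.29 (SE, adjusted p = 0.0986). Of 21 other settings, Col4a1 stayed in this class in 19, Fbn1 in 16, Sparc in 14, Dll3 in 13, Lpp in 12 and Timp3 in 8. Without Inhba KO replicate 3, Lpp, Dll3 and Timp3 left the class, and the Inhba effect of Lpp was 0.43, under the fold threshold. Without Inhba KO replicate 1 the Inhba effect of Sparc was 0.33, under the fold threshold, and the other 5 genes stayed among 14. With that animal grouped by its genotype field, 11 genes moved alike, and of the 6 only Col4a1 and Lpp were among them. The Inhba effect of Sparc was then -0.11, that of Timp3 0.22, that of Fbn1 0.64 and that of Dll3 -0.61. Without Inha pair 2, Fbn1, Col4a1, Sparc, Timp3, Lpp and Dll3 all lost the unadjusted threshold in the Inha KO, in a fit where the remaining pair is assumed to vary like the other animals.

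**Figure D4:**
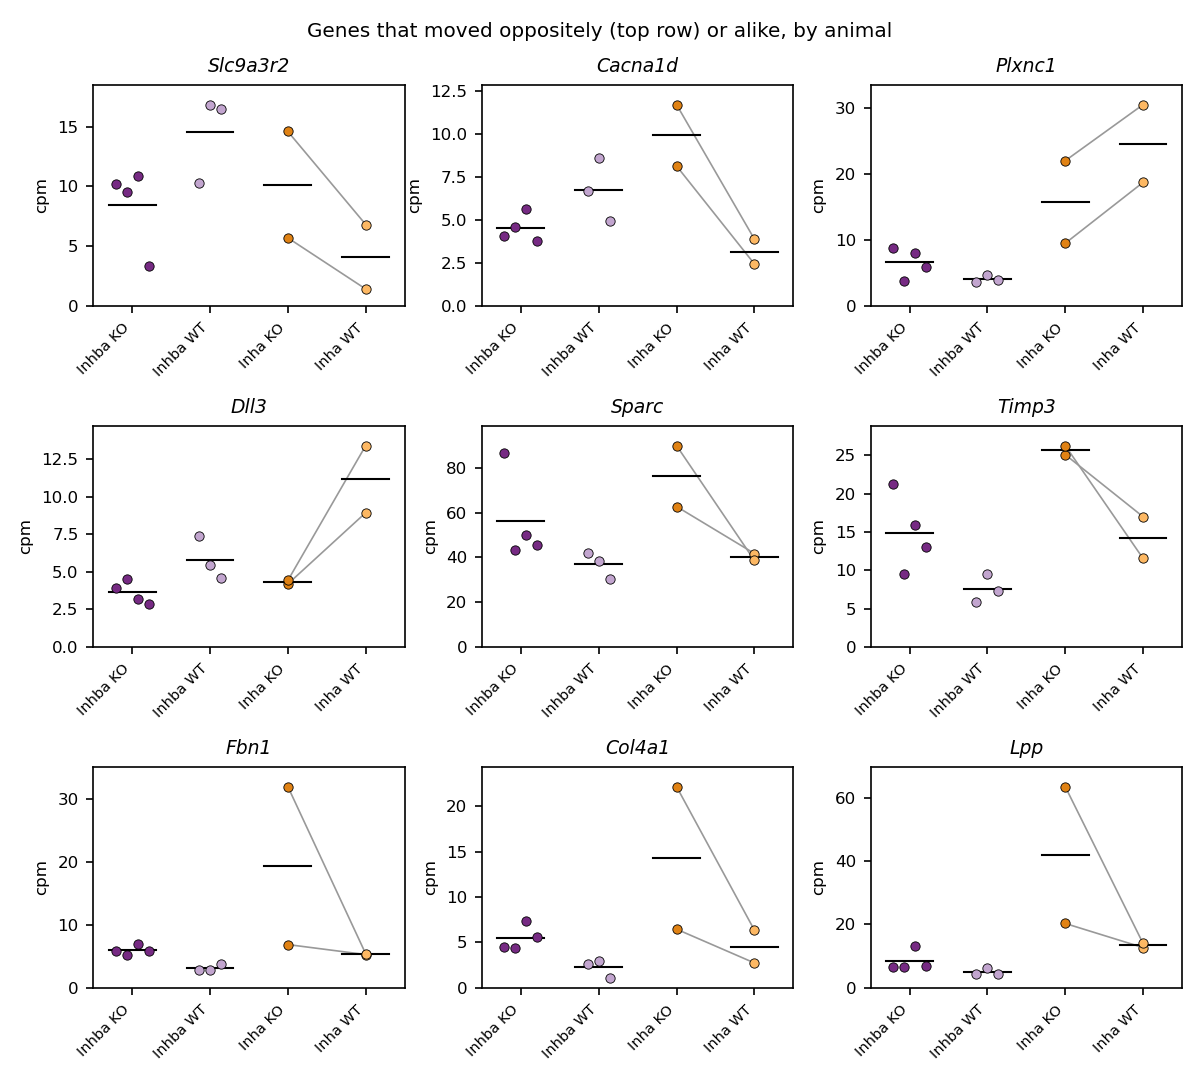
Level in cpm of the 3 genes that moved oppositely (top row) and the 6 that moved alike (lower rows), 1 point per animal, with bars at group means and lines joining Inha littermates. Inha KO lies above its littermate in Slc9a3r2, Cacna1d and the 5 alike genes that were higher in KO, and below it in Plxnc1 and Dll3.

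Markers of somatic cells were measured beside the genes that moved alike, and in bulk sorted cells more cells of another type and more RNA per cell cannot be told apart. For interstitial mesenchyme, the sum over 12 markers was 17.7 to 33.7 cpm in Inhba KO against 3.89 to 13.2 cpm in Inhba WT, and none of the 12 was in the Inha table. The 10 erythroid markers summed to 7.03 to 13.1 cpm in Inhba KO against 3.22 to 4.10 cpm in Inhba WT, and none was in the Inha table either. The 10 macrophage markers summed to 4.87 to 6.81 cpm in Inhba KO and 2.93 to 3.74 cpm in Inhba WT, with up to 3 and up to 5 of the 10 at 0. The 19 Sertoli cell markers summed to 122 cpm in Inhba KO replicate 1 and 24.2 to 69.2 cpm in the other KO animals, against 17.6 to 45.3 cpm in Inhba WT, and the 7 of them in both tables to 64.3 and 105 cpm in Inha KO against 46.4 and 62.3 cpm in Inha WT. The 5 tested Sertoli cell markers had median effects of 0.90 in the Inhba KO and 0.35 in the Inha KO, and all 5 had positive effects in both, beside 4353 and 4808 of all 9538 genes. The median by Inhba KO animal ran from -0.41 to 2.07. Grouped by its genotype field, Inhba KO replicate 1, with the highest Sertoli cell sum of the Inhba run, would count as WT. The Sertoli cell medians were not computed for that grouping. Cldn11, a Sertoli cell tight junction gene that was not tested, had 0 and 1 counts in Inha KO against 55 and 57 counts in Inha WT, and 3 to 22 counts in Inhba KO against 5 to 17 counts in Inhba WT. The 9 Leydig cell markers summed to 70.5 to 80.6 cpm in Inhba KO and 67.4 to 73.6 cpm in Inhba WT, and the 3 in both tables to 55.6 and 70.2 cpm in Inha KO against 46.1 and 66.1 cpm in Inha WT. The 10 endothelial markers summed to 95.4 to 168 cpm in Inhba KO and 109 to 158 cpm in Inhba WT, and the 2 in both tables to 108 and 144 cpm in Inha KO against 110.6 and 72.1 cpm in Inha WT. The part of other cell types in the genes that moved alike was not tested.

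Immediate early and stress genes are also induced by cell dissociation. Of 22 listed 9 were tested, with medians of 0.79 in the Inhba KO and 0.42 in the Inha KO. Of the 9, 4 moved up in the Inhba KO (Fos, Jun, Klf6 and Zfp36) and 1, Egr1, in the Inha KO, against 0.514% and 7.61% of all genes. The effect was positive for 8 of the 9 in the Inhba KO and for 8 in the Inha KO, beside 4353 and 4808 of all 9538 genes. Exceptions were Dusp1 in the Inhba KO (-0.03) and Klf6 in the Inha KO (-0.06). In the Inha run the median was 0.09 in pair 1 and 1.26 in pair 2. Fos, a subunit of the AP-1 transcription factor, had 33.1, 8.64, 9.74 and 12.9 cpm in Inhba KO against 3.89, 5.44 and 4.63 cpm in Inhba WT, and 6.21 and 18.2 cpm in Inha KO against 5.70 and 3.77 cpm in Inha WT. The highest animal for Fos, Inhba KO replicate 1, would count as WT by its genotype field. The medians of this list were not computed for that grouping. Egr1, a growth factor-induced transcription factor, had 32.6, 26.8, 44.4 and 23.3 cpm in Inhba KO against 7.02, 26.4 and 20.8 cpm in Inhba WT, and 76.9 and 95.6 cpm in Inha KO against 38.0 and 22.8 cpm in Inha WT. No gene of the list passed the adjusted test of the mean, where Egr1 had an adjusted p of 0.166.

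**Figure D5:**
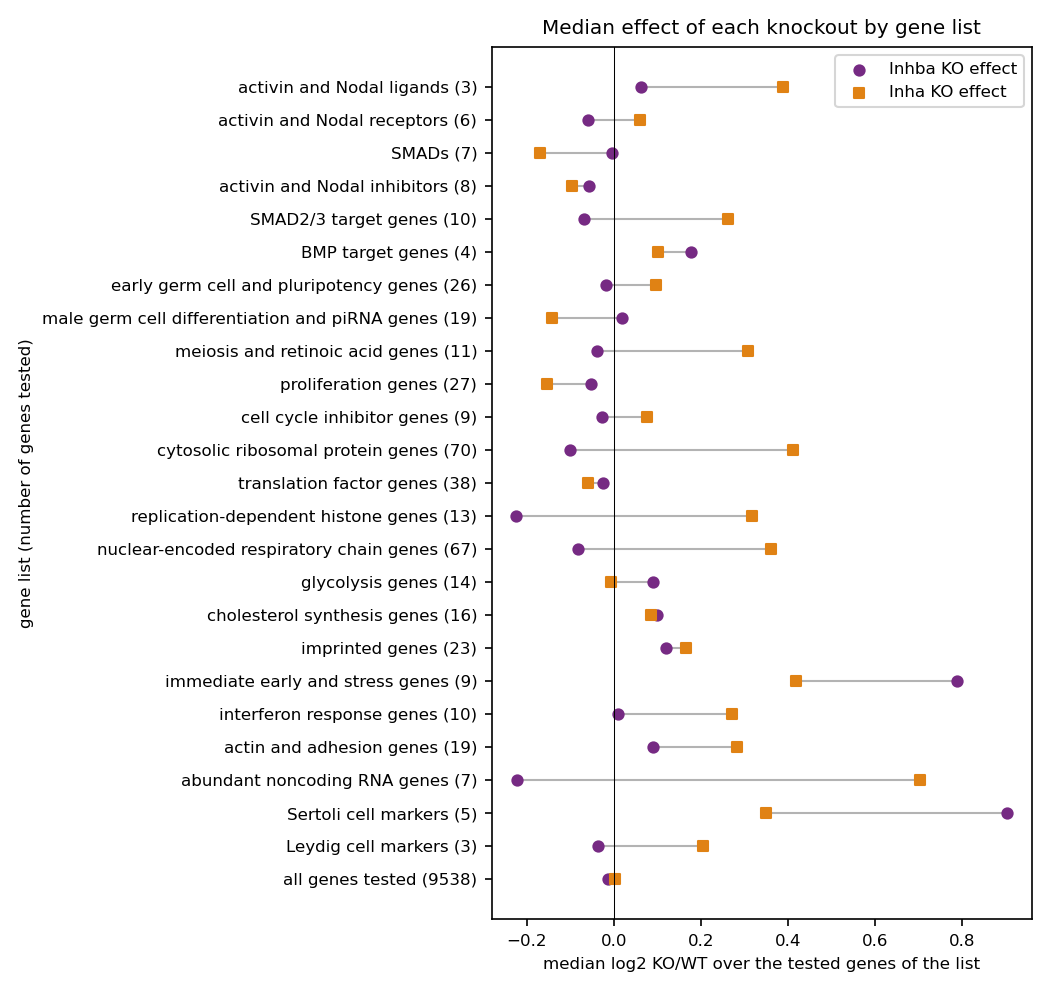
Median log2 KO/WT over the tested genes of each list, with circles for the Inhba KO effect, squares for the Inha KO effect and the number of tested genes in brackets. Ribosomal protein, respiratory chain, histone and noncoding RNA genes lie below 0 in the Inhba KO and above 0 in the Inha KO, and immediate early genes and Sertoli cell markers lie above 0 in both.

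The shared effect, the mean of both effects, passed an adjusted p under 0.05 with 1.5-fold and 1 sign in 1 gene, Mroh1, 0.0105% of those tested. Its Inhba levels gave no sign of a change, with 7.25 to 11.2 cpm in Inhba KO and 6.37 to 8.84 cpm in Inhba WT. In the Inha run Mroh1, a HEAT repeat protein gene, had 106 and 35.9 cpm in KO against 4.58 and 7.77 cpm in WT, and the same gene passed the test for different effects (-3.12 ± 0.56 SE, adjusted p = 0.0351). Thus no gene with a call for a shared effect moved in the Inhba KO.

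The components of activin and Nodal signalling themselves gave no call for a difference or a shared effect. Among ligands, 3 of 12 listed were tested. Nodal, an embryonic morphogen that uses the same type I receptors, had 10.8 to 21.0 cpm in Inhba KO and 13.2 to 14.8 cpm in Inhba WT, and 7.47 and 27.5 cpm in Inha KO against 8.95 and 8.95 cpm in Inha WT, so the Inha pairs went in different directions. Gdf3, a Nodal-related ligand of pluripotent cells, had 26.6, 20.4, 20.4 and 16.4 cpm in Inhba KO against 28.4, 30.4 and 29.1 cpm in Inhba WT, without overlap (-0.50 ± 0.18 SE, unadjusted p = 0.0189). In the Inha run it had 10.5 and 11.7 cpm in KO and 7.12 and 12.6 cpm in WT. Gdf11 had effects of 0.26 and 0.39 in the Inhba KO and the Inha KO.

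Of 8 receptors and co-receptors 6 were tested, with effects between -0.17 and 0.13 in the Inhba KO and between -0.43 and 0.33 in the Inha KO. The type II receptor Acvr2a had effects of 0.13 and -0.01, Acvr2b -0.17 and 0.33, and the type I receptor Acvr1b 0.01 and 0.26. The Nodal co-receptor Tdgf1 had effects of -0.11 and -0.43. Of the SMADs, the signal transducers, 7 of 8 were tested. Smad2 had effects of 0.03 and -0.17 and Smad3 of 0.05 and -0.17. Smad4, the common partner of receptor-activated SMADs, had 74.1 and 98.9 cpm in Inha KO against 114 and 110 cpm in Inha WT (-0.48 ± 0.12 SE), with 84.6 to 87.2 cpm in Inhba KO and 84.8 to 92.3 cpm in Inhba WT (-0.05 ± 0.09 SE), and its difference had an adjusted p of 0.242.

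Of 12 inhibitors 8 were tested. Bambi, a pseudoreceptor that blocks the type I receptors, had 5.29 and 7.91 cpm in Inha KO against 12.6 and 10.2 cpm in Inha WT, and 9.80 to 11.4 cpm in Inhba KO against 7.98 to 11.2 cpm in Inhba WT (difference 1.01 ± 0.37 SE, adjusted p = 0.259). Tgif1, a corepressor of SMAD2 and SMAD3, had effects of -0.08 in the Inhba KO and 0.61 in the Inha KO (adjusted p of the difference = 0.242). Lefty1, an antagonist and target of Nodal, was lower than WT in both, with effects of -0.30 and -0.41, but its Inha pairs differed in direction, at -1.22 in pair 1 and 0.40 in pair 2. Of 19 SMAD2/3 targets 10 were tested, with medians of -0.07 in the Inhba KO and 0.26 in the Inha KO, and 7 of the 10 had opposite signs, against 4781 of all 9538 genes. Among them the cell cycle inhibitor Cdkn1a had effects of -0.28 and 0.63 (adjusted p of the difference = 0.173), and none of the 10 was called, beside 62 of all 9538 genes.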

How the data were processed

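Gonocytes were sorted by GFP from the testes of single embryos, and RNA-seq was run per embryo. According to the submitters' notes and the study's methods, the authors aligned reads to GRCm38 with STAR 2.5.2b and counted them per gene with featureCounts (Subread 1.5.2). The deposited tables hold raw counts. Each animal has 2 sequencing records and 1 count column, and how they were combined is not given in the sources used here. Genes under 2 cpm in 2 animals and mitochondrial genes were already left out of the Inha table by the authors, so its totals are of the kept genes. Totals were 17239105 to 19791975 counts in the Inhba run and 6320539 to 11917167 in the Inha run, and floors and totals cover counting error only. Titles gave the groups.

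Effects were fitted in R 4.3.3 with edgeR 4.0.16 (TMM, quasi-likelihood test, robust), in a joint model with means for Inhba KO and WT, a term for each Inha littermate pair and the Inha KO effect. The pairs come from the sample titles and the study's methods, and deviations of littermates from their group means correlated at 0.24. The joint fit shares 1 estimate of spread between the runs. The contrasts were both effects, their difference and their mean. P-values were adjusted over all 9538 genes (Benjamini-Hochberg). Genes named were the leading calls for the difference, all genes that moved in both knockouts, and members of listed pathways. Of the leading calls, 1 is not reported here. The genes and lists were chosen with earlier results of these data known. Other settings used limma 3.58.1 (voom), DESeq2 1.42.0, other filters and scalings, and each animal or pair left out. The GC and length correction, the separate spread per run and the grouping of Inhba KO replicate 1 by its genotype field were added after seeing the data. The code was tested on simulated data.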

Additional observations from a re-analysis of the deposited data

Results flagged for a closer look

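In 5 of 56 genes checked, 1 Inhba KO animal stood far from the other 3, a gap that chance gives in about 1 of 20 groups. The outlying animal was the highest for Acvr1b at 33.3 cpm, Lpp at 13.3 cpm, Ndufa7 at 218.5 cpm and Sparc at 86.4 cpm, and the lowest for Ski at 140.1 cpm. The outlying animal was Inhba KO replicate 3 for Acvr1b, Lpp, Ndufa7 and Ski, and for Sparc it was Inhba KO replicate 1, whose genotype field reads WT.

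The Inhba and Inha effects differed by the test of the difference itself in 15 genes named in the text. The difference (Inhba effect minus Inha effect, log2) was -1.04 for Rps25, -1.13 for Rps15 and -0.87 for Rpl32. It was -1.05 for Cox6a1, -1.25 for Ndufa7 and -0.98 for Uqcrh. It was -1.24 for Utf1, -1.73 for Anapc13, -2.92 for Tysnd1 and -3.12 for Mroh1. For the noncoding RNA genes it was -1.72 for Rn18s-rs5 and -1.74 for Mir6236. It was positive for Trim12a at 5.93, Ankrd45 at 2.08 and Ap4m1 at 1.43. With Inhba KO replicate 1 grouped by its genotype field, Uqcrh, Rn18s-rs5, Trim12a, Ankrd45 and Ap4m1 lost the call.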

How the results depend on the processing

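The medians of the ribosomal protein and respiratory chain genes kept their signs under every setting tried. With 1 animal or pair left out at a time, the ribosomal protein median ran from -0.11 to -0.06 in the Inhba KO and from 0.41 to 0.55 in the Inha KO. The calls moved more. Genes called for different effects numbered 62, against 0 with limma-voom, 0 with a separate spread per run, 28 with separate fits per run, 257 with DESeq2, 5 with GC and length trends removed, and 10 to 356 with an animal or pair left out. Without the replicate block the counts were 0 for different effects, 0 for a shared effect, 0 moved oppositely and 5 moved alike, and r stayed within 0.1. The shared effect was called in 1 gene, against 0 with RLE, limma-voom, GC and length trends removed, a separate spread per run, or Inhba KO replicate 1 grouped by its genotype field, 7 with no filter, 6 at 10 cpm, 70 with DESeq2, 17 with E15.5 animals added, 14 with separate fits, 13 with totals without noncoding RNA and ribosomal protein genes, 3 with no fold threshold, and 0 to 165 with an animal or pair left out. Genes that moved oppositely numbered 3, against 0 at 10 cpm, 0 with E15.5 animals added, 0 with the changed totals, 0 at p under 0.01, 1 with limma-voom, 1 with a separate spread per run, and 0 to 5 with an animal or pair left out. Genes that moved alike numbered 6, against 11 with separate fits, 11 with the genotype-field grouping, 1 at p under 0.01, and 4 to 18 with an animal or pair left out. The correlation of effects ran from -0.02 to 0.10 in those fits. The cause of these shifts was not tested. The lower total counts of the Inha table, and its 2 pairs, limit its precision. The study reported more reads for the Inha run than for the Inhba run.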
